A study of Mus musculus with 28 samples.

Results

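Transforming growth factor beta (TGF-beta) is the best known profibrotic cytokine of the liver. Its 3 ligands are made as latent precursors, are released from the matrix by integrins and proteases, and bind a type II receptor that recruits and phosphorylates a type I receptor. The receptor pair phosphorylates SMAD2 and SMAD3, which enter the nucleus with SMAD4 and turn on matrix genes in hepatic stellate cells, together with inhibitors that close the loop. The 9 genes followed here, called the members, are the ligands *Tgfb1*, *Tgfb2* and *Tgfb3*, the receptors *Tgfbr1* and *Tgfbr2*, the signal transducer *Smad3*, the inhibitor *Smad7*, the nuclear corepressor *Skil* and the decoy receptor *Bambi*. The members were chosen by name as textbook components of the pathway, with earlier results of these data known. They are 9 of the 21935 genes in the count table. All 9 were among the 12580 genes that passed the filter on low counts and were tested.

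Liver messenger RNA was sequenced from 28 male B6.V-Lepob/JRj mice, which lack leptin and become obese, and each library came from a separate mouse. The mice arrived at 5 weeks of age and were kept on the AMLN diet, which is high in fat and supplies fructose and cholesterol, for 14 weeks before treatment and throughout it. They then received vehicle (n = 10), obeticholic acid (OCA) at 30 mg/kg (n = 9) or INT-787 at 30 mg/kg (n = 9) by mouth once daily for 2 weeks. Both compounds are agonists of the farnesoid X receptor (FXR), a nuclear receptor for bile acids, and were compared at the same dose and time. All groups share the genotype and the diet, no lean or chow-fed group was analysed here, and every difference below is therefore a difference between diseased livers. Levels are given as CPM, the count of a gene relative to the total of its library, with totals scaled by the TMM method. A gene counted as called where edgeR's quasi-likelihood test gave an adjusted p no higher than 0.05, adjusted over all tested genes.

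Total counts ranged from 1009593 to 22421506 per mouse, with a median of 14864947. Vehicle replicate 6 held the lowest total and its member counts ran from 6 for *Tgfb2*, *Skil* and *Bambi* to 98 for *Tgfbr2*. Vehicle replicate 5 stood apart at 209 genes that overlap a gene over 20 times higher on the opposite strand. The summed level of those genes was 7.59% of that of their partners in this mouse and 0.692% to 1.07% in the other mice. With both mice left out, the number of members called was 2 for INT-787 against vehicle and 0 in the other comparisons, the same as with all mice. Hepatocyte markers such as *Alb* were at high level in every library.

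INT-787 lowered 1 ligand and 1 receptor of the pathway. *Tgfb1* and *Tgfbr2*, the type II receptor that binds the ligand first, fell by 26.3% and 20.8% compared with vehicle, and no other member passed the test. No member passed it for OCA against vehicle or for INT-787 against OCA. By the count of calls, 2 of 9 members (22.2%) were called for INT-787, beside 19.6% of all tested genes, so the share of members called was near that of the transcriptome. The count was 1 without vehicle replicate 9 or 10 or INT-787 replicate 5, 8 or 9, where *Tgfb1* lost its call. With all mice, both calls were lower, whereas 9.48% of all tested genes were called lower and 10.2% higher. An unadjusted p under 0.05 (edgeR) was reached by 4 members, *Tgfb1*, *Tgfb2*, *Tgfb3* and *Tgfbr2*. With upper-quartile normalization, 37.5% of the called genes were higher in this comparison, in place of 51.7%. For OCA against vehicle, 0 of 9 members were called, beside 6.60% of all genes (2.45% lower and 4.15% higher), and 0 had an unadjusted p under 0.05. For INT-787 against OCA, 0 of 9 were called, beside 5.38% of all genes (3.19% lower and 2.19% higher), and 5 had an unadjusted p under 0.05, namely *Tgfb1*, *Tgfb3*, *Tgfbr1*, *Tgfbr2* and *Bambi*. DESeq2 called 1 of them, *Tgfb3*. The share of all tested genes with an unadjusted p under 0.05 was not counted, so the unadjusted counts have no background beside them.

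**Figure D1:**
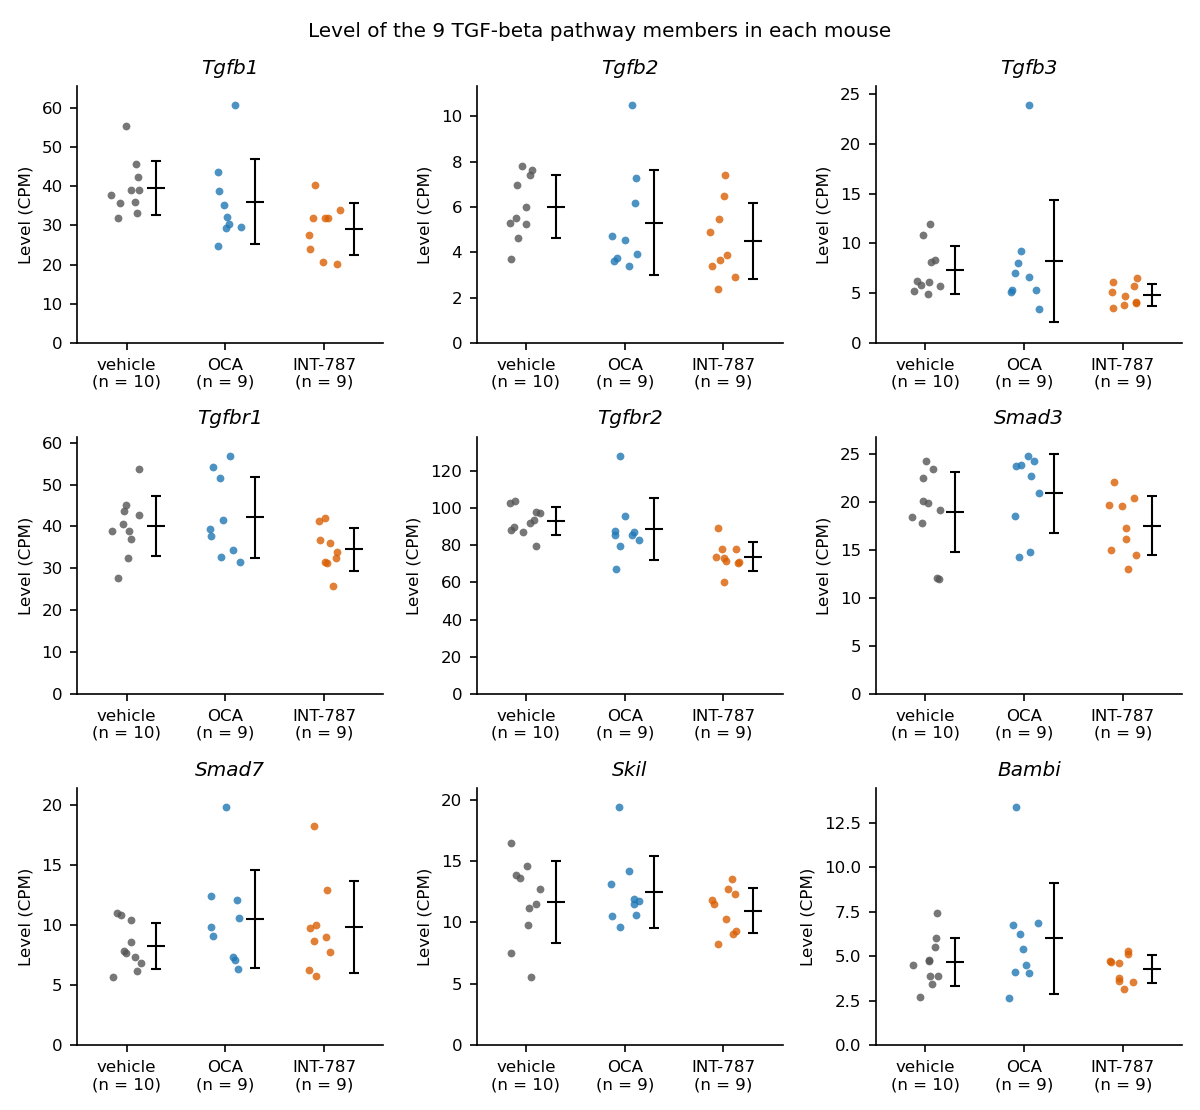
Level of each member in CPM (y axis, linear from 0) in every mouse by group. Points are mice and bars are the mean with 1 SD; the INT-787 mice sit low for *Tgfb1* and *Tgfbr2*, and a single OCA mouse stands above the others for *Tgfb3*, *Tgfbr2* and *Bambi*.

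The stretches of DNA just upstream of these 2 genes are shown because they are the called members, a ligand and the receptor that binds it. *Tgfb1* lies on the plus strand of chromosome 7 (25687002 to 25705077) and *Tgfbr2* on the minus strand of chromosome 9 (116084293 to 116175360) in GRCm38. Each run holds the 250 bases before the RefSeq start site in GRCm38.p6, read 5′ to 3′ on the strand of the gene, at chr7:25686752-25687001 for *Tgfb1* and chr9:116175364-116175613 for *Tgfbr2*. Capitals mark SP1 boxes (GGGCGG or its complement) and the SMAD core CAGAC on either strand.
Tgfb1: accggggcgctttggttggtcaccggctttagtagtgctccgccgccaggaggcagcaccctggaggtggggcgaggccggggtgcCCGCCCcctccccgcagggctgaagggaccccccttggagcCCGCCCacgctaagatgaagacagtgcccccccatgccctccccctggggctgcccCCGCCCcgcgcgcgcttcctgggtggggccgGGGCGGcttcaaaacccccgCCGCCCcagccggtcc
Tgfbr2: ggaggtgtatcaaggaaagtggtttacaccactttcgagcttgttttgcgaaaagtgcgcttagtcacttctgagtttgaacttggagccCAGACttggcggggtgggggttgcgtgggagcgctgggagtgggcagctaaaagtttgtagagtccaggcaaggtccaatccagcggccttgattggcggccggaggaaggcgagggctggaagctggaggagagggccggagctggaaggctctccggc
The *Tgfb1* stretch was 75.2% G and C and held 5 SP1 boxes, whereas the *Tgfbr2* stretch was 58.4% G and C and held 0 SP1 boxes and 1 SMAD core, 160 bases upstream of the start. Over 32851 RefSeq stretches of the same length the median was 52.4%, an SP1 box was present in 32.7% and the SMAD core in 42.2%. Neither stretch held AGGTCA, the half-site of nuclear receptors (14% of all stretches), or the AP-1 letters TGANTCA (6.75%) on either strand. An exact inverted repeat of the half-site spaced by 1 base, the form FXR is known to bind, was in neither stretch and in 0.00609% of all stretches. Only exact letters were searched, and a repeat this rare was unlikely to be in any given stretch. Its absence therefore does not bear on binding by FXR, which was not tested. Of the members, 5 matched an entry, the others of these being *Tgfb2*, *Tgfbr1* and *Smad3*. The first listed stretch of *Tgfbr1* and that of *Smad3* each held 2 SP1 boxes, and that of *Tgfb2* held 2 SMAD cores.

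Of the ligands, *Tgfb1*, the isoform most tied to fibrosis, had levels in vehicle mice of 31.9 at the lowest, 38.3 at the median and 55.4 CPM at the highest. In OCA mice the same values were 24.8, 32.1 and 60.7 CPM, and in INT-787 mice 20.2, 31.8 and 40.3 CPM. Of the 9 INT-787 mice, 7 were below every vehicle mouse, although the groups overlapped through INT-787 replicates 1 and 2. The mean was 39.6 ± 6.88 CPM (SD, n = 10) with vehicle and 29.1 ± 6.64 CPM (SD, n = 9) with INT-787, which gave a log2 fold change of -0.44 (SE 0.144, 95% CI -0.73 to -0.15, edgeR adjusted p = 0.0281). The OCA mean was 36 ± 10.8 CPM, with a log2 fold change of -0.13 against vehicle (95% CI -0.42 to 0.16, edgeR adjusted p = 0.703), and -0.26 (0.248) without OCA replicate 8 or -0.076 (0.864) without OCA replicate 3. *Tgfb1* is among the genes that the study itself named from these libraries, so its fall is not independent evidence. The call was lost without vehicle replicate 9 (adjusted p = 0.0524), vehicle replicate 10 (0.059), INT-787 replicate 5 (0.054), INT-787 replicate 8 (0.0584) or INT-787 replicate 9 (0.0584), with the fold change between -0.51 and -0.37 whichever mouse was left out.

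*Tgfb2* (minus strand of chromosome 1, 186622792 to 186705989) was the least abundant ligand per length of transcript. Its lowest, median and highest levels were 3.72, 5.75 and 7.79 CPM with vehicle, 3.39, 4.53 and 10.5 CPM with OCA, and 2.37, 3.87 and 7.43 CPM with INT-787. The 3 groups overlapped. The log2 fold change of INT-787 against vehicle was -0.44 with an SE of 0.215, the same size as for *Tgfb1* with a wider error, and the adjusted p was 0.152 (edgeR). OCA gave -0.19 against vehicle (edgeR adjusted p = 0.715), and -0.38 (0.284) without OCA replicate 8 or -0.13 without OCA replicate 7.

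*Tgfb3* (minus strand of chromosome 12, 86056745 to 86079041) had lowest, median and highest levels of 4.93, 6.2 and 12 CPM with vehicle, 3.46, 6.65 and 23.9 CPM with OCA, and 3.47, 4.77 and 6.53 CPM with INT-787. Of the 9 INT-787 mice, 5 were below every vehicle mouse and the others lay in the lower part of the vehicle range, and the value of 23.9 CPM was that of a single mouse, OCA replicate 8, more than the next OCA mouse at 9.24 CPM. The log2 fold change was -0.54 for INT-787 against vehicle (SE 0.254, edgeR adjusted p = 0.138) and 0.23 for OCA against vehicle (edgeR adjusted p = 0.708). INT-787 against OCA gave -0.76 (95% CI -1.28 to -0.25, edgeR adjusted p = 0.0724), the deepest difference between the compounds among the members. Without OCA replicate 8 this difference was -0.37 (adjusted p = 0.352), the OCA value against vehicle turned to -0.17, and INT-787 against vehicle was called at an adjusted p of 0.0262 with the same fold change of -0.54. With DESeq2 in place of edgeR, INT-787 against OCA was called (-0.75, adjusted p = 0.0436). Exons of *Tgfb2* and *Tgfb3* overlap annotated genes on the opposite strand by 124 and 420 bases, and whether the counting used strand is not given in the sources used here.

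Each ligand's share of the pool was compared within mice. *Tgfb1* made up 71.1% ± 4.67 (SD) of the summed ligand level per kilobase of exon in vehicle mice, 69.7% ± 6.58 in OCA mice and 72.3% ± 3.88 in INT-787 mice. *Tgfb3* held 19.4%, 21.5% and 18.2%, and *Tgfb2* 9.49%, 8.80% and 9.58%, in the same order. No test was run on these shares.

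Of the receptors, *Tgfbr2* fell with INT-787. Its lowest, median and highest levels were 79.4, 92.8 and 104 CPM with vehicle, 67.4, 85.6 and 128 CPM with OCA, and 60.4, 73.2 and 89.3 CPM with INT-787. Of the 9 INT-787 mice, 8 were below every vehicle mouse, and only INT-787 replicate 2 reached into the vehicle range. The mean was 93.3 ± 7.59 CPM (SD, n = 10) with vehicle, 88.9 ± 16.5 CPM (SD, n = 9) with OCA and 73.9 ± 7.71 CPM (SD, n = 9) with INT-787. The log2 fold change for INT-787 was -0.34 (SE 0.087, 95% CI -0.51 to -0.16, edgeR adjusted p = 0.00608), and it stayed called in all 39 refits at this threshold, with values from -0.40 to -0.30, but did not reach a log2 change of 1 in size. For OCA against vehicle it was -0.071 (edgeR adjusted p = 0.751), and -0.15 (0.247) without OCA replicate 8 or -0.028 without OCA replicate 4. INT-787 against OCA gave -0.27 (95% CI -0.45 to -0.084, edgeR adjusted p = 0.0744), which was called without OCA replicate 4 (0.031) or INT-787 replicate 2 (0.0414) and which was -0.18 (0.228) without OCA replicate 8.

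*Tgfbr1* (plus strand of chromosome 4, 47353222 to 47414931), the type I receptor kinase that *Tgfbr2* activates, had lowest, median and highest levels of 27.6, 39.8 and 53.7 CPM with vehicle, 31.6, 39.3 and 56.8 CPM with OCA, and 25.9, 34 and 42.0 CPM with INT-787. The 3 groups overlapped, all reaching into the stretch from 31.6 to 42.0 CPM. The log2 fold change was -0.23 for INT-787 against vehicle (edgeR adjusted p = 0.175), 0.058 for OCA against vehicle (0.872) and -0.29 for INT-787 against OCA (95% CI -0.53 to -0.045, 0.169).

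Neither SMAD among the members passed the test. *Smad3* (minus strand of chromosome 9, 63646767 to 63757994), the transducer that carries the signal to matrix genes, had medians of 19.6, 22.7 and 17.3 CPM with vehicle, OCA and INT-787. Its ranges of 12 to 24.3, 14.3 to 24.8 and 13 to 22.1 CPM overlapped. The log2 fold change was -0.14 for INT-787 and 0.10 for OCA against vehicle (edgeR adjusted p = 0.475 and 0.751). With a mouse left out the INT-787 value ran from -0.20 to -0.097 and the OCA value from 0.045 to 0.16 (without vehicle replicate 4 and OCA replicate 7). *Smad7*, which the pathway induces and which blocks the type I receptor, lies on the plus strand of chromosome 18 (75367529 to 75395935) and was the only member with a positive estimate for INT-787 against vehicle. Its lowest, median and highest levels were 5.68, 7.74 and 11 CPM with vehicle, 6.32, 9.81 and 19.8 CPM with OCA, and 5.74, 9.00 and 18.2 CPM with INT-787. The log2 fold changes of 0.40 for OCA and 0.30 for INT-787 did not pass the test (edgeR adjusted p = 0.287 and 0.328). They were 0.22 (0.626) without OCA replicate 6 and 0.14 (0.669) without INT-787 replicate 8. The groups overlapped, with 3 OCA mice and 2 INT-787 mice above every vehicle mouse.

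The inhibitors that act at other steps did not pass the test either. *Skil* (plus strand of chromosome 3, 31095058 to 31122577) encodes SnoN, a corepressor that binds SMADs on DNA and is degraded when the pathway is active. Its lowest, median and highest levels were 5.52, 12.1 and 16.5 CPM with vehicle, 9.61, 11.7 and 19.4 CPM with OCA, and 8.26, 11.5 and 13.5 CPM with INT-787. The medians lay within 1 CPM of each other, and the log2 fold changes against vehicle were -0.13 for INT-787 and 0.054 for OCA (edgeR adjusted p = 0.558 and 0.909). With a mouse left out the INT-787 value ran from -0.20 to -0.069 (without vehicle replicate 10 and vehicle replicate 1) and the OCA value from -0.052 to 0.12 (without OCA replicate 6 and vehicle replicate 1). *Bambi* (plus strand of chromosome 18, 3507923 to 3516404) encodes a pseudoreceptor without a kinase that blocks type I receptors. Its lowest, median and highest levels were 2.69, 4.61 and 7.42 CPM with vehicle, 2.63, 5.41 and 13.4 CPM with OCA, and 3.13, 4.61 and 5.29 CPM with INT-787. The INT-787 mice lay inside the vehicle range, with a log2 fold change of -0.10 (edgeR adjusted p = 0.794), and OCA gave 0.39 (0.334). Without OCA replicate 8, the OCA value of *Bambi* was 0.15.

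**Figure D2:**
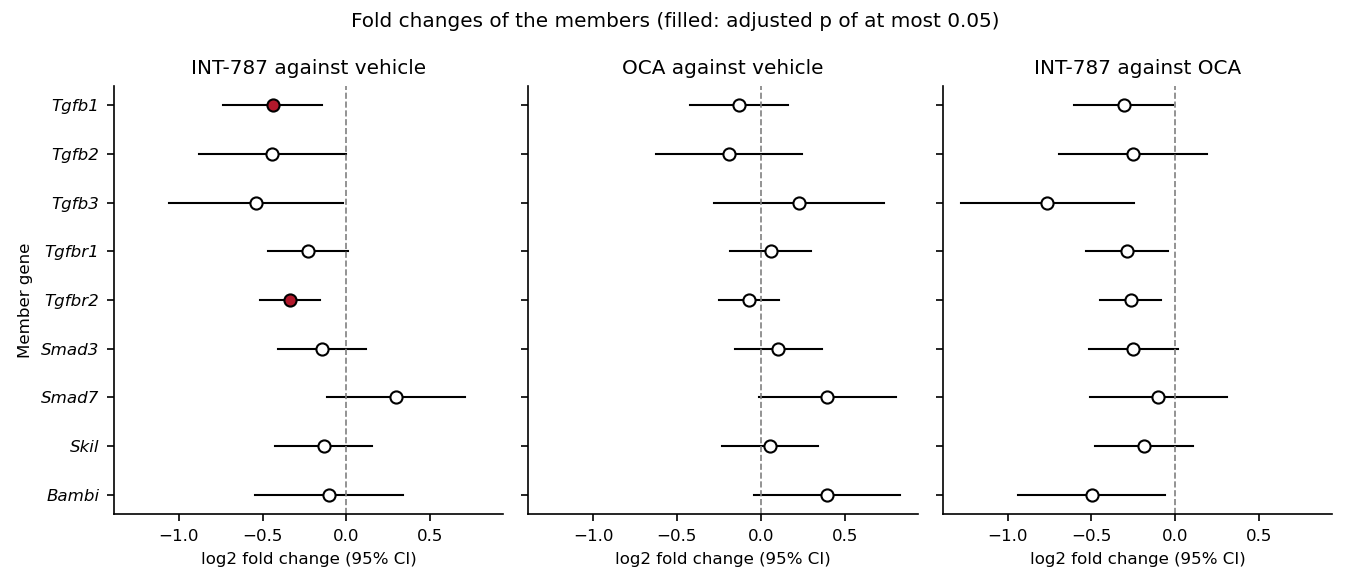
log2 fold change (x axis) with its 95% confidence interval for each member (y axis) in the 3 comparisons, from edgeR. Filled points have an adjusted p of at most 0.05 and are *Tgfb1* (-0.44) and *Tgfbr2* (-0.34) in INT-787 against vehicle.

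Across the 9 members, the median log2 fold change was -0.23 for INT-787 against vehicle, beside -0.001 over all tested genes, and 8 of 9 estimates were negative. For OCA against vehicle the median was 0.058, beside 0.018 over all genes, with 3 negative, and without OCA replicate 8 it was -0.0065 with 5 negative. Both comparisons use the same vehicle mice. For INT-787 against OCA the median was -0.27, beside -0.007 over all genes, and all 9 estimates were negative although none was called. The intervals give the size of difference between the compounds that these mice allow. They ran from -0.60 to -0.012 for *Tgfb1*, from -0.69 to 0.19 for *Tgfb2*, from -0.52 to 0.016 for *Smad3*, from -0.51 to 0.31 for *Smad7*, from -0.48 to 0.10 for *Skil* and from -0.94 to -0.059 for *Bambi*. An effect of INT-787 equal to that of OCA is therefore inside the interval of 4 members, *Tgfb2*, *Smad3*, *Smad7* and *Skil*, before any adjustment for the number of genes.

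A single OCA mouse bears on this comparison. OCA replicate 8 had the highest OCA level of 6 members, namely *Tgfb1*, *Tgfb2*, *Tgfb3*, *Tgfbr1*, *Tgfbr2* and *Bambi*. It also had the highest OCA sum of the macrophage (1390 CPM) and cholangiocyte (1660 CPM, mostly *Spp1*) markers. The same held for T cell (9.68 CPM), B cell (3.1 CPM), neutrophil (10.8 CPM) and platelet and megakaryocyte (11.7 CPM) markers. It was not the highest OCA mouse for the hepatocyte, endothelial or stellate cell sum, but was for the stellate cell markers without *Ecm1* (525 CPM). Without it, the difference between INT-787 and OCA was -0.18 for *Tgfb1* (edgeR adjusted p = 0.607), -0.061 for *Tgfb2* (0.952), -0.22 for *Tgfbr1* (0.387) and -0.26 for *Bambi* (0.594), with the values for *Tgfb3* and *Tgfbr2* given above. Among INT-787 mice, replicate 2 had the highest level of *Tgfb1*, *Tgfb3*, *Tgfbr2* and *Smad3*, and the highest sum of the stellate cell (673 CPM), endothelial (382 CPM) and cholangiocyte (575 CPM) markers in its group. INT-787 replicate 8 had the lowest level of *Tgfb2*, *Tgfbr1* and *Tgfbr2*, the highest of *Smad7*, and the lowest sum of the stellate cell (384 CPM) and endothelial (173 CPM) markers. INT-787 replicate 9 had the lowest level of more members, 4 (*Tgfb1*, *Tgfb3*, *Smad3* and *Bambi*), with a stellate cell sum of 601 CPM, above the group's median of 558 CPM, and an endothelial sum of 262 CPM, below its median of 313 CPM. The part of these markers in the members' levels was not tested.

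Levels of different members were compared only per kilobase of exon. With vehicle, *Tgfbr2* was the most abundant at 11.4 ± 0.927 CPM per kilobase (SD, n = 10), above *Tgfb1* at 7.85 ± 1.36 in 10 of 10 mice. *Tgfbr1* followed at 6.13 ± 1.09 and did not differ from *Tgfb1* beyond their spread, and it was above *Smad3* at 3.42 ± 0.763 in 10 of 10 mice. Below these lay *Tgfb3* (2.17 ± 0.718), *Smad7* (1.82 ± 0.425), *Skil* (1.20 ± 0.345), *Tgfb2* (1.04 ± 0.240) and *Bambi* (0.923 ± 0.270), and in this lower part the mean ± SD ranges of neighbours overlapped, although *Smad7* was above *Skil* in 10 of 10 mice. The receptors and the main ligand were thus the most abundant mRNAs per length of the set, and the inhibitors and minor ligands the least. The first 4 places were the same with OCA and with INT-787. With INT-787, *Tgfbr2* stood at 9.03 ± 0.942, *Tgfb1* at 5.77 ± 1.32 and *Tgfbr1* at 5.29 ± 0.784 CPM per kilobase, and *Tgfb1* was above *Tgfbr1* in 4 of 9 mice, against 9 of 10 with vehicle. *Smad7* (2.17 ± 0.841) lay above *Tgfb3* (1.43 ± 0.322) in 8 of 9 INT-787 mice, and *Tgfb3* lay above *Smad7* in 6 of 10 vehicle mice and 3 of 9 OCA mice, with mean ± SD ranges that overlapped in all groups.

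Within groups, the ligands went together from mouse to mouse. On log2 CPM taken as deviations from the group means, Pearson's r over the 28 mice was 0.723 for *Tgfb2* with *Tgfb3*, 0.680 for *Tgfb1* with *Tgfb3* and 0.572 for *Tgfb1* with *Tgfb2*. *Bambi* followed *Tgfb3* (0.673), and the receptors had an r of 0.379 with each other. *Smad7* had an r of -0.12 with *Tgfb1* and 0.006 with *Tgfb2*. All points share their library, its depth and its mix of cells, so these values describe the mice and carry no test. They were not taken again without OCA replicate 8, the highest OCA mouse for the ligands and for *Bambi*, so the part of that mouse in them is not known.

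Among all tested genes, those whose level followed a member most closely were listed by the same measure. For *Tgfb1* they were *Parvb* (0.898), *G6pdx* (0.870) and *Eng* (0.868), a coreceptor of the same family. For *Tgfb2* they were *Csrp1* (0.882), *Mmp2* (0.875), a matrix metalloproteinase, and *Plxna4* (0.865), and for *Tgfb3* they were *Dkk3* (0.918), *Cx3cl1* (0.908) and *Trim47* (0.884). The receptors were closest to *Cav2* (0.850), *Cdk19* (0.792) and *Rbpj* (0.791) for *Tgfbr1*, and to *Slc45a4* (0.750), *Anln* (0.749) and *Rbm15b* (0.746) for *Tgfbr2*. *Smad3* was closest to *Lpar2* (0.860), *Ccnd2* (0.806) and *Heyl* (0.790), and *Smad7* to *Plagl2* (0.797), *Stk19* (0.731) and *Lrch1* (0.725). For *Skil* they were *Lrp12* (0.889), *Zfp568* (0.800) and *Tspyl1* (0.774). *Bambi* was closest to *Cd24a* (0.831), *Spint1* (0.831) and *Sgce* (0.819), of which *Cd24a* and *Spint1* are epithelial genes. Over the 26 mice without vehicle replicates 5 and 6, these values ran from 0.685 (*Skil* with *Zfp568*) to 0.935 (*Tgfb3* with *Dkk3*). They were not taken again without OCA replicate 8.

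The wider pathway was followed in 97 further genes in 5 lists, of which 90 were tested. INT-787 changed 32 of the 90 compared with vehicle (35.6%), 8 higher (8.89%) and 24 lower (26.7%), beside 19.6% of all tested genes, 10.2% higher and 9.48% lower. The median log2 fold change was -0.15, beside -0.001 over all genes. For OCA against vehicle 7 were called (7.78%), 4 higher and 3 lower, a share near the 6.60% of all tested genes, with a median of 0.000 beside 0.018. INT-787 differed from OCA at 15 (16.7%), 2 higher and 13 lower (14.4%), beside 5.38% and, for lower, 3.19% of all tested genes, with a median of -0.11 beside -0.007. Without OCA replicate 8 these counts were 34, 8 and 13, and without vehicle replicates 5 and 6 they were 26, 6 and 15. The calls lost for INT-787 against vehicle without those 2 mice included *Zfyve9*, *Fkbp1a*, *Ltbp2* and *Bmp10*. Exons of opposite-strand genes cover 67.9% of the exon length of *Tagln*, 52.1% of *Ldlrad4* and 47.3% of *Fstl3*, and these 3 stayed called without those mice. Several of these calls were lost in some of the 28 fits that left out 1 mouse. Against vehicle these were, for INT-787, *Postn* in 17 fits, *Bmp10* in 15, *Fkbp1a* in 12, *Ltbp2* and *Emilin1* in 11 each, *Fbn1* and *Tgfbi* in 9 each, *Furin* in 3 and *Zfyve9* in 1, and for OCA *Acvr1b* in 20, *Plg* in 13 and *Nox4* in 1. *Postn* moved from -0.57 (edgeR adjusted p = 0.0468) to -0.30 (0.173) without vehicle replicate 2. Between the compounds they were *Gdf15* in 10 fits and *Bmp10* and *Pmepa1* in 3 each, with *Pmepa1* at -0.51 (edgeR adjusted p = 0.0818) without OCA replicate 8. *Vim* stayed called between the compounds but moved from -0.71 to -0.45 without that mouse.

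**Figure D3:**
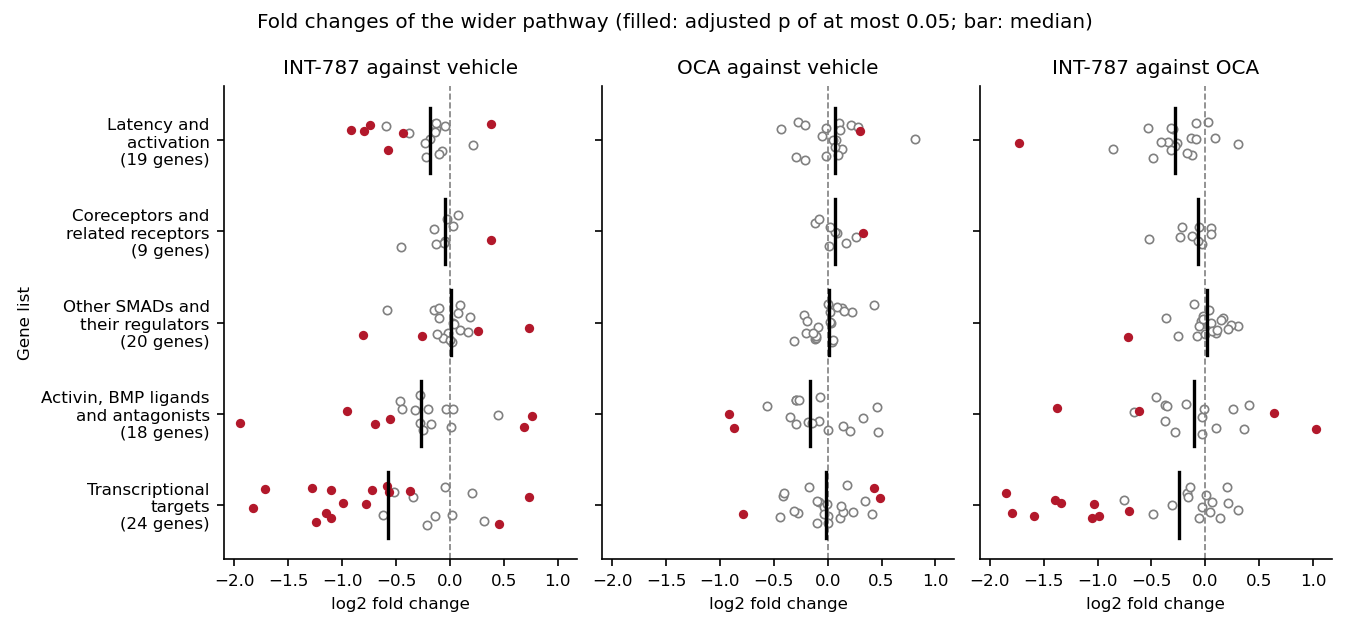
log2 fold change (x axis) of every tested gene of the 5 wider pathway lists (y axis) in the 3 comparisons. Each point is a gene, filled where the edgeR adjusted p is at most 0.05, and the bar is the median of the list; the transcriptional targets lie to the left in both comparisons of INT-787, with medians of -0.58 and -0.24.

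The list with the most calls for INT-787 was that of transcriptional targets, genes that TGF-beta is known to regulate. Of 24 tested targets, 13 were lower (54.2%) and 2 higher (8.33%) with INT-787 than with vehicle, beside 9.48% and 10.2% of all tested genes, with a median log2 fold change of -0.58. The count of 13 lower, which includes *Postn* and *Tgfbi*, was 11 to 14 when a mouse was left out. *Timp1*, an inhibitor of matrix proteases, had lowest, median and highest levels of 4.50, 7.33 and 12.4 CPM with vehicle, 6.51, 8.38 and 10.7 CPM with OCA, and 0.854, 2.44 and 3.42 CPM with INT-787. The INT-787 mice overlapped neither other group, and the log2 fold change was -1.71 against vehicle and -1.85 against OCA (edgeR adjusted p = 2.32e-07 and 7.5e-07). *Tagln*, a contractile protein of myofibroblasts, *Lox* and *Loxl2*, which crosslink collagen, fell with INT-787 by 1.11, 1.82 and 0.99 on the log2 scale (edgeR adjusted p = 1.51e-06, 1.77e-05 and 1.71e-05). *Col3a1*, a fibrillar collagen, had medians of 355, 353 and 148 CPM with vehicle, OCA and INT-787, and the INT-787 mice (76.8 to 243 CPM) lay below all others (281 to 861 CPM). The study itself named 5 of the targets from these libraries, *Acta2*, *Col1a1*, *Col1a2*, *Col3a1* and *Timp1*, so their fall is not independent evidence. Among the other 19 targets 8 were lower and 2 higher, beside the 9.48% and 10.2% of all tested genes. These come from the same libraries, and the list was chosen with earlier results of these data known. They are not independent evidence either.

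Not every target went down. *Fn1*, which encodes fibronectin and is also made by hepatocytes, rose with INT-787 (log2 fold change 0.45, edgeR adjusted p = 0.0105) and with OCA (0.49, 0.0141). *Nox4*, an oxidase that produces hydrogen peroxide, had medians of 36.6 CPM with vehicle, 53.9 CPM with OCA and 60.4 CPM with INT-787, and rose by 0.43 with OCA (edgeR adjusted p = 0.0181) and by 0.73 with INT-787 (1.96e-05) on the log2 scale. *Cdkn1a*, the cell cycle inhibitor p21, fell with both compounds, by 0.79 with OCA and 0.78 with INT-787 (edgeR adjusted p = 0.00146 and 0.000713). These were the 3 of 24 targets called for OCA (12.5%, beside 6.60% of all tested genes). The log2 difference of INT-787 from OCA was 0.008 for *Cdkn1a*, -0.035 for *Fn1* and 0.30 for *Nox4* (edgeR adjusted p = 0.991, 0.939 and 0.132). INT-787 was lower than OCA at 9 targets (37.5%, beside 3.19% of all tested genes) and higher at 0, *Timp1*, *Tagln*, *Col3a1* and *Loxl2* having the smallest p. Of these 9, 5 are the targets that the study named, and 4 of the other 19 were lower.

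Genes of ligand latency and activation gave 5 lower (26.3%) and 1 higher (5.26%) of 19 for INT-787 against vehicle, beside 9.48% and 10.2% of all tested genes. The count of 5 was 2 of 19, near that background, in 7 of the 28 fits that left out 1 mouse (vehicle replicate 1, 7 or 9, or INT-787 replicate 3, 5, 8 or 9), where *Ltbp2*, *Fbn1* and *Emilin1* lost their calls. *Nrros*, which tethers latent TGF-beta1 on myeloid cells, fell by 0.58 on the log2 scale (edgeR adjusted p = 0.00165), from a median of 7.71 to 4.96 CPM. *Thbs1*, or thrombospondin 1, which can activate the latent ligand, fell by 0.74 (0.00625), and *Fbn1*, the fibrillin that holds latent complexes in the matrix, fell by 0.80 (0.0365). *Furin*, the protease that cleaves the ligand precursors, rose by 0.38 (0.0247). *Ltbp2*, a matrix protein of the latent TGF-beta binding family, had medians of 10.6, 11.9 and 6.22 CPM with vehicle, OCA and INT-787, and the INT-787 mice (2.56 to 8.89 CPM) lay below every OCA mouse (9.88 to 67.6 CPM), with a log2 fold change of -1.73 (edgeR adjusted p = 0.00133). The highest of these was OCA replicate 8, and without it the value was -1.20 (0.00234), while OCA against vehicle moved from 0.81 (0.131) to 0.28 (0.546). For OCA against vehicle, *Plg*, the precursor of plasmin, was the single call of 19 (0.30, 0.0426), a share of 5.26% beside 6.60% of all tested genes, and it lost its call in 13 of the 28 fits that left out 1 mouse.

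Among coreceptors and related receptors, *Acvr1b*, a type I receptor for activins, was the single call of 9 (11.1%, beside 19.6% of all tested genes for INT-787 and 6.60% for OCA). It rose with INT-787 (0.38, edgeR adjusted p = 0.00802) and with OCA (0.33, 0.0472), from a median of 17.1 CPM to 21.7 and 22.7 CPM. The OCA call of *Acvr1b* was lost in 20 of the 28 fits that left out 1 mouse, and the INT-787 call in 0. Among 20 other SMADs and their regulators, 2 rose and 2 fell with INT-787, and this share of 4 in 20 was near the 19.6% called among all tested genes. The 2 that rose were 1 without INT-787 replicate 9, and the 2 that fell were 1 in 12 of the 28 fits that left out 1 mouse. *Pmepa1* and *Ldlrad4* encode related proteins that hold SMADs away from the receptor, and they went in opposite directions. *Pmepa1*, itself induced by TGF-beta, fell by 0.81 (edgeR adjusted p = 0.00255), whereas *Ldlrad4* rose by 0.73 (0.000227), from a median of 6.22 to 10.8 CPM. *Zfyve9*, the SMAD anchor SARA, rose by 0.26 (0.0225) and *Fkbp1a*, which binds the type I receptor, fell by 0.26 (0.0423). *Pmepa1* was also lower with INT-787 than with OCA, by 0.72 (0.0225).

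Activin and BMP genes, the sister branches of the family, gave 4 lower (22.2%) and 2 higher (11.1%) of 18 for INT-787, beside 9.48% and 10.2% of all tested genes. The 2 higher were *Bmp6* and *Bmp10*, and *Bmp10* lost its call in 15 of the 28 fits that left out 1 mouse, which left 1. *Fst*, or follistatin, which traps activins, had lowest, median and highest levels of 1.43, 2.23 and 3.42 CPM with vehicle, 0.932, 1.38 and 2.42 CPM with OCA, and 0, 0.723 and 0.991 CPM with INT-787. No INT-787 mouse reached the vehicle range, and the log2 fold change was -1.95 against vehicle and -1.38 against OCA (edgeR adjusted p = 9.92e-06 and 0.0046). Levels this low, at most 0.991 CPM with INT-787, rest on few counts, so the size of the change is uncertain. *Fstl3*, a related activin trap, fell by 0.95 (0.00506), and *Inhbc*, the activin C subunit that hepatocytes make, fell by 0.69 (5.43e-05). *Bmp6*, the iron-sensing signal of the sinusoid, rose by 0.68 with INT-787 (edgeR adjusted p = 0.000736). OCA lowered *Inhbb* by 0.87 (0.00467) and *Gdf15*, a stress-induced cytokine, by 0.91 (0.00128), and INT-787 was higher than OCA at *Gdf15* (0.63, 0.0402) and *Bmp10* (1.03, 0.0241) and lower at *Inhbc* (-0.62, 0.00159).

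The cells that make and receive TGF-beta were followed through their markers, since in whole liver fewer cells of a type and less RNA per cell cannot be told apart. With INT-787, 7 of 15 macrophage markers, 3 of 10 endothelial, 2 of 11 stellate cell and 2 of 7 cholangiocyte markers were lower than with vehicle, and 2 of 10 hepatocyte markers were higher, beside the 9.48% and 10.2% of all tested genes called lower and higher. The endothelial calls were *Pecam1*, *Cdh5* and *Fcgr2b*, and without vehicle replicate 2 or INT-787 replicate 3, 6, 8 or 9 only *Fcgr2b* of these stayed called, 1 of 10 markers, whereas 5 were called without INT-787 replicate 2. The stellate cell count was 4 without OCA replicate 8 or INT-787 replicate 7, and the hepatocyte count was 1 without INT-787 replicate 6. Hepatocyte sums had medians of 109000, 149000 and 145000 CPM with vehicle, OCA and INT-787, over ranges of 80300 to 154000, 126000 to 219000 and 113000 to 187000 CPM. *Alb* made up a median of 64.7%, 72.0% and 70.9% of that sum, and the other 9 markers summed to medians of 38400, 42900 and 39500 CPM over overlapping ranges. The macrophage markers summed to a median of 979 CPM with vehicle (853 to 1170), 896 with OCA (692 to 1390) and 745 with INT-787 (560 to 1100). The endothelial sums had medians of 368, 300 and 313 CPM over ranges of 270 to 500, 237 to 371 and 173 to 382 CPM. Stellate cell sums had medians of 591, 545 and 558 CPM over ranges of 496 to 713, 463 to 645 and 384 to 673 CPM. *Ecm1*, the most abundant of these markers, made up a median of 26.6%, 25.8% and 35.2% of that sum, and the sums of the other 10 markers had medians of 437, 399 and 346 CPM. For INT-787 against vehicle, 9 of 11 stellate cell markers had a negative log2 fold change, with a median of -0.24. Cholangiocyte sums had medians of 725, 873 and 424 CPM, over ranges of 515 to 831, 473 to 1660 and 365 to 575 CPM. *Spp1* alone made up a median of 85.7%, 86.9% and 78.9% of that sum, and the other 6 markers summed to medians of 102, 94.5 and 90.1 CPM over overlapping ranges of 86.6 to 131, 73.6 to 224 and 67.2 to 111 CPM. T cell markers gave 0 calls of 6, with median sums of 5.87, 6.72 and 5.2 CPM, neutrophil markers 0 of 3, platelet and megakaryocyte markers 0 of 2, and 1 of 2 B cell markers, *Cd79b*, was lower with INT-787. *Ly6g*, a defining neutrophil marker, was at 0 in every vehicle mouse. For OCA against vehicle, 3 hepatocyte markers were higher and 0 markers of the other types were called, beside 4.15% of all tested genes higher and 2.45% lower. The 3 were *Alb*, *Tat* and *Fgb*, and 1 of them, *Alb*, stayed called without OCA replicate 9, the OCA mouse with the highest hepatocyte sum. Leaving out 1 mouse gave at most 1 lower call in a list of another type, for B cell, endothelial and stellate cell markers. For INT-787 against OCA, where 3.19% of all tested genes were lower and 2.19% higher, 7 of 15 macrophage markers were lower, *Ecm1* (stellate cell) was higher, and *Spp1*, a cholangiocyte and macrophage gene, fell by 1.12 on the log2 scale (edgeR adjusted p = 0.000134). *Marco*, another macrophage marker, was called higher at 2.63 (edgeR adjusted p = 0.0371), but was at 1.62 (0.191) without INT-787 replicate 8 and lost its call in 9 of the 28 fits that left out 1 mouse. The part of these shifts in the levels of *Tgfb1*, *Tgfbr2* and the targets was not tested.

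**Figure D4:**
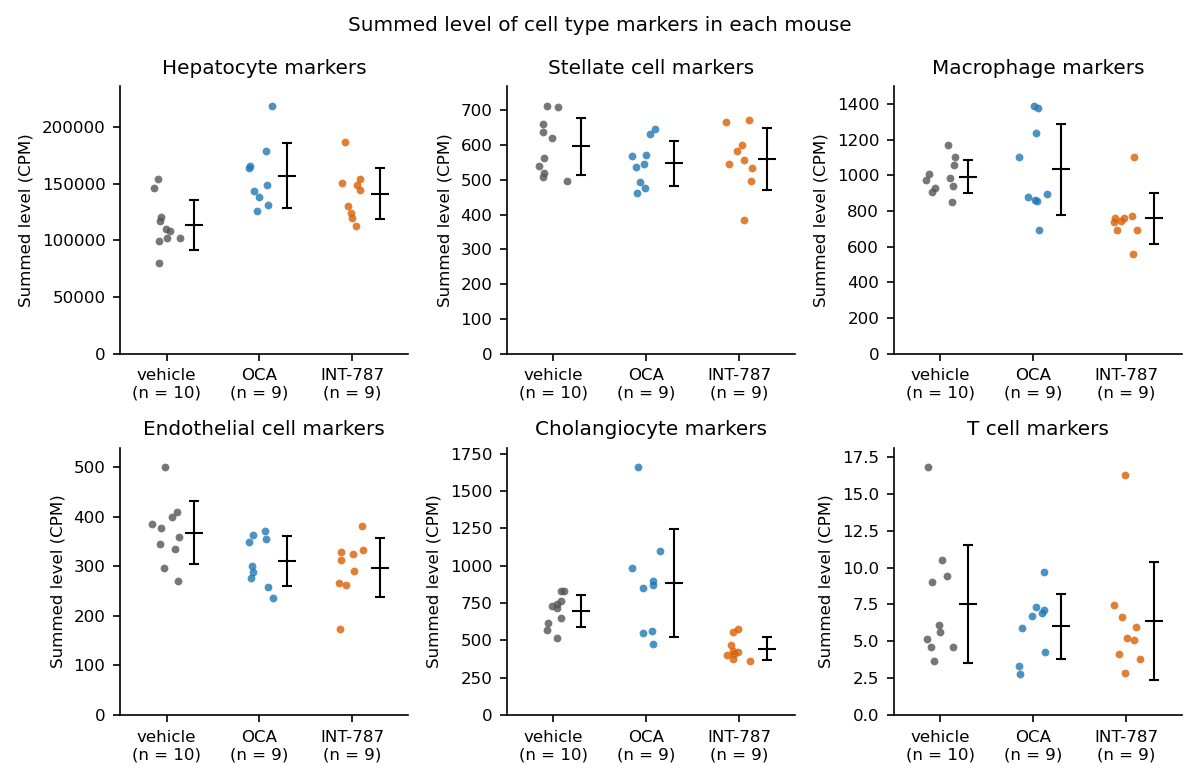
Summed level of the markers of 6 cell types in CPM (y axis, linear from 0) in every mouse by group, with the mean and 1 SD as bars. Most INT-787 mice sit low for macrophage markers, except INT-787 replicate 5 at 1100 CPM, inside the vehicle range. The INT-787 mice also sit low for cholangiocyte markers, whose sum is mostly *Spp1*. The stellate cell sums, in which *Ecm1* is the most abundant gene, overlap in all 3 groups.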

How the data were processed

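The authors prepared stranded libraries from liver messenger RNA, aligned the reads with STAR 2.5.2a to GRCm38 (Ensembl 89), as the study's methods state, and deposited raw counts per Ensembl gene and mouse, without normalization. The counting program and its use of strand are not given in the sources used here. Of 21935 genes, 21858 matched GENCODE M21. Groups came from the sample labels. Total counts were 1009593 to 22421506 per mouse, so genes of a few CPM rest on under 10 counts in the shallowest library, vehicle replicate 6.

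The counts were filtered with filterByExpr (12580 genes kept), scaled by TMM and tested with glmQLFit and glmQLFTest of edgeR 4.0.16 in R 4.3.3. One model held the 3 groups without covariates, and p values were corrected over all tested genes by the Benjamini-Hochberg procedure. Adjusted p values for which no tool is given come from edgeR. The study used DESeq2, run here (1.42.0) as an alternative, beside limma 3.58.1 and sva 3.50.0. The scripts were tested on simulated data. Promoter stretches and motifs came from RefSeq on GRCm38.p6. The replicate numbers were not used to pair the mice in this model.

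The text names all 9 members, from each wider list and comparison the called genes (all where at most 4, otherwise the 4 with the smallest p), and the 3 genes most correlated with each member. Members, lists and rules were chosen with earlier results of these data known.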

Additional observations from a re-analysis of the deposited data

Results flagged for a closer look

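Within the 9 members and 3 groups, 27 sets of mice were checked for a single mouse far from the others by Dixon's test at 95%, which chance alone passes in about 1 of 20 sets. It picked out 5 values, and all 5 were in the OCA group. OCA replicate 8 was at 23.9 CPM for *Tgfb3*, with the next mouse at 9.24 CPM, at 128 CPM for *Tgfbr2*, with the next at 95.9 CPM, and at 13.4 CPM for *Bambi*, with the next at 6.89 CPM. OCA replicate 6 was at 19.8 CPM for *Smad7*, with the next at 12.4 CPM, and at 19.4 CPM for *Skil*, with the next at 14.2 CPM. These values come from 2 mice, and genes of 1 mouse share its library. No vehicle or INT-787 value was picked out.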

How the results depend on the processing

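Over the alternatives, 1023 fold changes of members kept their direction and side of the threshold, 8 gained a call, 6 lost one and 7 changed sign. The count of members called for INT-787 against vehicle (2) was 1 with an adjusted p of at most 0.01, 0 where a log2 change of 1 or more in size was also required, and 1 to 3 when a mouse was left out. For INT-787 against OCA (0) it was 1 with upper-quartile normalization, DESeq2 or 1 surrogate variable, and 0 to 1 when a mouse was left out. The wider pathway count for INT-787 (32) was 20 and 8 under the same 2 stricter thresholds. The count for OCA (7) was 3 and 0 there, and 4 to 8 when a mouse was left out, with 4 without OCA replicate 3. With the replicate block, the count of members for INT-787 was 1, since *Tgfb1* was at -0.38 (adjusted p = 0.0665), and *Skil* for OCA was -0.027. Whether mice of the same replicate number share a block is not given by the labels. Of 27 same-numbered pairs, 11 had a correlation over 0.1 (-0.232 to 0.405). In 8 of 27 checks a mouse correlated best with its own number. The pairs of replicates 1 to 3 were all positive (0.09 to 0.405), and those of replicates 4 to 9 went both ways. A shared block was therefore neither shown nor excluded. Leaving out 1 mouse turned the sign of uncalled values, over ranges of -0.18 to 0.0091 (*Bambi*, INT-787 against vehicle), -0.17 to 0.33 (*Tgfb3*, OCA), -0.0065 to 0.11 (*Tgfbr1*, OCA), -0.052 to 0.12 (*Skil*, OCA) and -0.26 to 0.075 (*Smad7*, INT-787 against OCA). *Tgfb3* for INT-787 was called with 2 groups per fit (0.0219), and *Tgfbr2* between the compounds with upper-quartile normalization (0.0489) and 1 surrogate variable (0.0452). The causes were not tested. At least 10 counts in every mouse left 7934 genes, without *Tgfb2*, *Skil* and *Bambi*, whose depth is the limit. Upper-quartile normalization moved the share of higher calls for OCA from 62.9% to 52.3%.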
